A study of Rattus norvegicus with 4 samples.

Results

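The TRiC chaperonin, also called CCT, is the ring-shaped protein-folding machine of the eukaryotic cytosol, and its 8 subunits are encoded by Tcp1, Cct2, Cct3, Cct4, Cct5, Cct6a, Cct7 and Cct8. The members were taken as the rows of the deposited count table that carry these symbols, 1 row per gene identifier. All 8 had a row and all passed the filter on low counts, out of 12162 genes tested and 21648 gene identifiers in the table.

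RNA was sequenced from cultured neurons of the cerebral cortex of rat embryos at day 18, bought from a commercial supplier. 2 libraries came from cells given the solvent DMSO and 2 from cells given topotecan, a drug that traps topoisomerase I on DNA and that the submitters used to lower the expression of long genes. The labels state neither the dose nor the duration of treatment. The cells were a primary culture, so the RNA is that of all cells in the dish, and fewer cells of a type and less RNA per cell cannot be told apart. The labels do not state that libraries came from separate cultures, and p-values therefore measure the spread between these libraries, which may be technical.

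TRiC is built of a pair of stacked rings in which every subunit occupies a fixed position. Newly made polypeptides enter the central chamber, the rings close when ATP is bound and hydrolysed, and the folded protein is released. Actin and tubulin, the building blocks of the neuronal cytoskeleton, are its best known clients, and prefoldin hands them over to it. The subunits differ in their affinity for ATP: TCP1, CCT2, CCT4 and CCT5 lie on the side of the ring that binds it tightly, and CCT3, CCT6A, CCT7 and CCT8 on the side that binds it weakly.

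The promoters of the 2 subunit genes that rose most and of the 2 that rose least are shown so that the elements described further on can be read in them. Each sequence holds the 250 bases before the annotated start, 5′ to 3′ on the strand of the gene, from RefSeq on the build GRCr8. Capitals mark the CCAAT box (CCAAT), the core of the cAMP response element (TGACG) and the GC box (GGGCGG), each on either strand.
Cct4: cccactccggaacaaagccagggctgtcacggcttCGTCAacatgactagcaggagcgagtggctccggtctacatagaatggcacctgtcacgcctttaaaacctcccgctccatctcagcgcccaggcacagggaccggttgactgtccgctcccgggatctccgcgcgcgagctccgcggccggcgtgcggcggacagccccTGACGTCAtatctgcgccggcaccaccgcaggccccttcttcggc
Cct3: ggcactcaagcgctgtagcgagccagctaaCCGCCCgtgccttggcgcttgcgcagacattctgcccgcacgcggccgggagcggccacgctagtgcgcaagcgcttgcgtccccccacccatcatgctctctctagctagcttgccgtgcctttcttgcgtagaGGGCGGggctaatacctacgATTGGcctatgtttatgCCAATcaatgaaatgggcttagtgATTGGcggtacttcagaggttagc
Cct8: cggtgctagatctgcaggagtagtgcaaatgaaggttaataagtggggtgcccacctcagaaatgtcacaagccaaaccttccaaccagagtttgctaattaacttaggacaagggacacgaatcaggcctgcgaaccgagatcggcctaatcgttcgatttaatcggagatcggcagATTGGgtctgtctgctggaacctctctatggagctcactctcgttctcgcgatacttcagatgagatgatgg
Cct7: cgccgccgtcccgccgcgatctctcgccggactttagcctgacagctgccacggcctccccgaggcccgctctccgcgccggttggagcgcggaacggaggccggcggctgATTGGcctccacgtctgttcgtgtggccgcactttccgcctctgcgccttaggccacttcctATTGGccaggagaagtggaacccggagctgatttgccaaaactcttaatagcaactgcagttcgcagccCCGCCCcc
They lie at chr14:101192807-101193056 (plus strand) for Cct4, chr2:176063279-176063528 (plus strand) for Cct3, chr11:40208329-40208578 (minus strand) for Cct8 and chr4:119546480-119546729 (plus strand) for Cct7.

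All 8 subunit mRNAs rose in topotecan, by between 15.1% and 36.2%, and in each of them both topotecan libraries lay above both DMSO libraries. Summed over the 8 genes, TRiC mRNA took 4458 and 4388 CPM (counts scaled to a library size of 1000000 after TMM, a correction for the make-up of each library) in the DMSO libraries and 5479 and 5491 CPM in the topotecan libraries, a ratio of 1.24 between the group means. The 8 log2 fold changes had a median of 0.31 and ran from 0.20 to 0.45, against a median of -0.01 over all genes tested. All 8 had an adjusted p under 0.05 (edgeR quasi-likelihood test, Benjamini-Hochberg over all genes), while 16.2% of all tested genes were called higher. Groups without overlap in the higher direction were found in 33.7% of all tested genes. The gap between the groups was wider than the spread within either of them for 7 subunits, the exception being Cct6a (a gap of 30.4 CPM beside 36.4 CPM between its DMSO libraries).

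The size of the rise depends on what is taken as the reference. Scaled to 22 genes of a fixed pan-neuronal list in place of TMM, the median of the subunits was 0.12 and only Cct4 passed (log2 fold change 0.26, adjusted p = 0.0346), while the median of all genes moved to -0.20. The split over all genes moved with it, from 2854 lower and 1970 higher to 3879 lower and 661 higher. The distance between the 2 medians was 0.32 under both scalings. A change of scaling shifts all log2 fold changes by nearly the same amount, so this distance could hardly change and tests nothing. The count also depended on single libraries: without topotecan replicate 1 it was 4 of 8 and without topotecan replicate 2 also 4 of 8, in each case Cct2, Cct3, Cct4 and Cct5. The number of all genes called higher was then 1208 and 1260. All 8 fold changes were above 0 in all 12 alternatives tried.

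**Figure D1:**
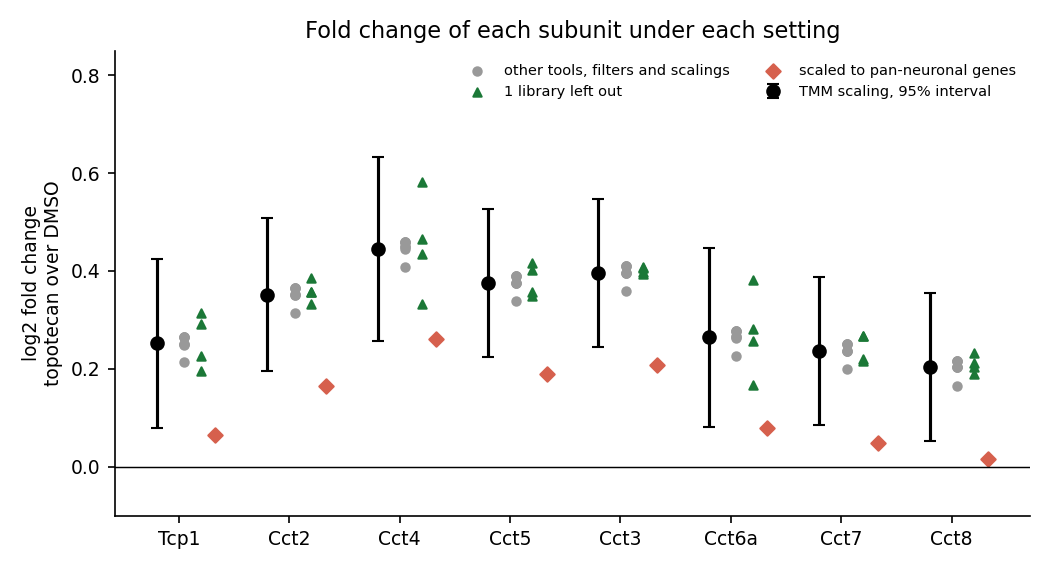
Log2 fold change (topotecan over DMSO) of each subunit, with the 95% interval of the edgeR fit (black), under other tools, filters and scalings (grey), with 1 library left out (green) and scaled to pan-neuronal genes (red diamonds). The 4 subunits on the left are those of the side with tight ATP binding. Every point lies above 0, and the pan-neuronal scaling gives the lowest value for each subunit.

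Genes of similar size or abundance moved as well, in both directions. The subunit genes span from 7.68 kb (Tcp1) to 24.7 kb (Cct3) in RefSeq on GRCr8. Of 3566 tested genes with a span in that range 753 (21.1%) were called higher and 661 (18.5%) lower, with a median log2 fold change of 0.09. Of 720 genes whose average log2 CPM lay in the range of the subunits 286 (39.7%) were called higher and 106 (14.7%) lower, with a median of 0.14. Where both ranges held, 121 of 266 genes (45.5%), the subunits included, were called higher and 20 (7.52%) lower, with a median of 0.19. Read against this share, a rise was frequent among genes within both ranges, and whether the complex differs from them was not tested.

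On the side of tight ATP binding, Cct4 (ENSRNOG00000009642) had the largest rise of the complex. Its mRNA stood at 306 and 260 CPM in DMSO and at 390 and 381 CPM in topotecan. The DMSO libraries lay 46.7 CPM apart, the most of any subunit, yet the lower topotecan library was 74.9 CPM above the higher DMSO library. The log2 fold change was 0.45 (SE 0.09, edgeR adjusted p = 0.0011), 0.58 without DMSO replicate 1 and 0.33 without DMSO replicate 2, and it passed in all 12 alternatives. RefSeq places a long non-coding RNA gene over the whole span of Cct4. Reads of the 2 could be mixed if counting did not use the strand, or if both genes lie on the same strand, which was not checked.

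Cct5 (ENSRNOG00000011632), whose product sits between CCT2 and CCT7 in the ring, was measured at 862 and 828 CPM in DMSO and at 1114 and 1078 CPM in topotecan. Every topotecan value was thus at least 216.7 CPM above every DMSO value, and the rise on the log2 scale was 0.38 (SE 0.07, edgeR adjusted p = 8.1e-04). Cct2 (ENSRNOG00000021317) had 392 and 380 CPM in DMSO and 493 and 492 CPM in topotecan. Its 2 topotecan libraries were almost equal, and the log2 fold change was 0.35 (SE 0.07, edgeR adjusted p = 0.0017). Tcp1 (ENSRNOG00000014160), the first subunit to be described and the source of the complex's name, had 213 and 205 CPM in DMSO against 238 and 259 CPM in topotecan. Its rise of 0.25 (SE 0.08, edgeR adjusted p = 0.0227) was the smallest of this side, and the gap between the groups was 25.8 CPM.

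On the side of weak ATP binding, Cct3 (ENSRNOG00000019090) rose most, and its DMSO libraries were the closest of any subunit. It had 694 and 695 CPM in DMSO and 910 and 918 CPM in topotecan, a log2 fold change of 0.40 (SE 0.07, edgeR adjusted p = 5.0e-04). The group means lay 219.3 CPM apart. Standard deviations were 0.344 CPM in DMSO and 5.84 CPM in topotecan, but with n = 2 each they measure the spread poorly.

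Cct6a (ENSRNOG00000000923) had 274 and 238 CPM in DMSO and 310 and 304 CPM in topotecan. The log2 fold change was 0.26 (SE 0.08, edgeR adjusted p = 0.0238), and without DMSO replicate 2 it was 0.17 and no longer passed (adjusted p = 0.0875). Cct6a has 14 named pseudogenes in RefSeq, the most of any subunit, and its count is uncertain where reads match such copies. The only one of them with a symbol in the count table, Cct6a-ps2, held between 1 and 7 counts per library. RefSeq names 4 pseudogenes of Cct3, 3 each of Cct7 and Cct8, and 1 each of Tcp1 and Cct5, to which the same limit applies.

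Cct7 (ENSRNOG00000015630) had 949 and 987 CPM in DMSO and 1121 and 1160 CPM in topotecan, a rise of 0.24 (SE 0.07, edgeR adjusted p = 0.0160). Cct8 (ENSRNOG00000001592) had 768 and 796 CPM in DMSO and 903 and 898 CPM in topotecan. Its rise of 0.20 was the smallest of the complex (SE 0.07, edgeR adjusted p = 0.0339, 95% interval from 0.05 to 0.35). Cct8 overlaps Usp16 by 174 bases in RefSeq, a gene with 989 to 1294 counts per library. With library totals as the only scaling Cct8 and Tcp1 did not pass (adjusted p = 0.0815 and 0.0502). The fold changes of the ATP-tight side ran from 0.25 to 0.45 and those of the other side from 0.20 to 0.40, so the ranges overlapped. Cct4, Cct5 and Cct2 lay above Cct6a, Cct7 and Cct8, while Tcp1 lay below Cct3, and the difference between the sides was not tested. Neighbours in the order of fold changes had overlapping 95% intervals, as had the extremes, Cct4 (0.26 to 0.63) and Cct8.

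**Figure D2:**
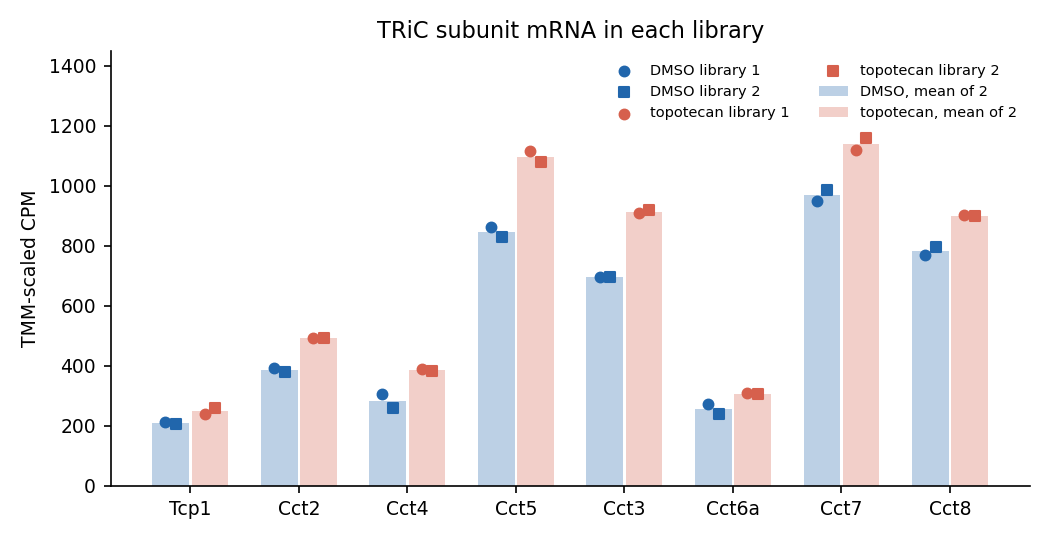
TMM-scaled CPM of the 8 subunits in each library (circles for replicate 1, squares for replicate 2) with the group means as bars from 0, DMSO in blue and topotecan in red. For each subunit both topotecan points lie above both DMSO points, with gaps from 25.8 CPM (Tcp1) to 216.7 CPM (Cct5). Heights and CPM gaps of different genes are not comparable, since counts grow with transcript length.

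The make-up of the complex at the mRNA level moved little. The share of a subunit in the summed TRiC counts does not depend on the scaling between libraries. The share of Cct3 lay at 15.6% and 15.8% in the DMSO libraries and at 16.6% and 16.7% in the topotecan libraries. That of Cct8 was 17.2% and 18.1% against 16.5% and 16.4%. The shares of Cct2, Cct3, Cct4 and Cct5 were higher in both topotecan libraries, those of Cct7 and Cct8 lower, and those of Tcp1 and Cct6a overlapped. The largest shift of a mean share was a decrease by 1.27 percentage points, for Cct8. Counting error was at most 0.26 points on either side (95% Wilson intervals, which cover counting error only). Replicates differed by more than that for some subunits: the DMSO shares were 21.29% and 22.49% for Cct7 and 6.87% and 5.92% for Cct4. Their mean shares moved by -1.09 and 0.63 points. Shares within a library sum to the whole, so a rise of some entails a fall of others. With 2 libraries against 2 an exact permutation test cannot go below p = 0.333, and none is given.

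**Figure D3:**
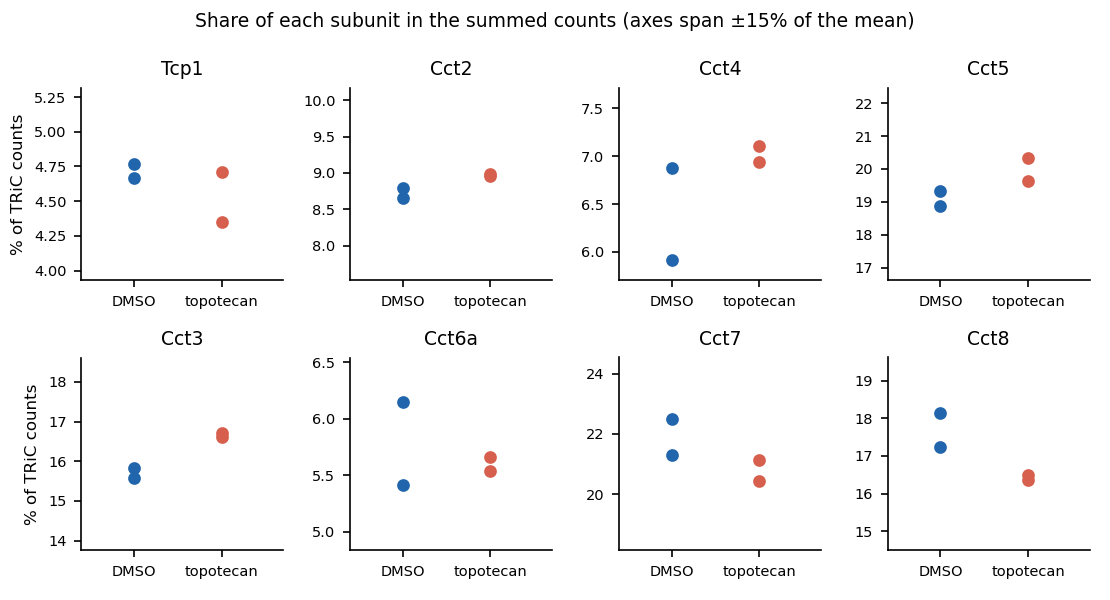
Share of each subunit in the summed counts of the 8 subunits, in percent, per library (DMSO in blue, topotecan in red); each axis spans 15% of the mean in either direction and does not start at 0. Cct3 is higher in topotecan (16.6% and 16.7% against 15.6% and 15.8%) and Cct8 lower, while Tcp1 and Cct6a overlap between the groups.

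Of the elements searched, none was present before all 8 genes. A CCAAT box was present before 5 of the 8 genes (Cct3, Cct5, Cct6a, Cct7 and Cct8), against 35.8% of 9063 promoters of tested genes of the same length. The GC box was present before 5 (Tcp1, Cct2, Cct3, Cct6a and Cct7), against 58.3%. The cAMP response element core TGACG lay before Cct2, Cct4 and Cct6a, against 28.2%, and Cct4 alone had the full palindrome TGACGTCA, which contains that core on both strands and occurs in 2.99%. In Cct4, printed above, it lies from 45 to 38 bases before the start. Cct3 has 3 CCAAT boxes within 65 bases of its start and 2 matches to the NRF1 element (in 9.17% of promoters).

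The heat shock element, bound by the stress factor HSF1, was searched as GAANNTTC and TTCNNGAA. The first was before no subunit gene (4.53% of promoters) and the second before Cct5 and Cct6a (5.74%). The E-box CACGTG was in none of the 8 windows (8.52%), and the ETS core CCGGAA in those of Tcp1 and Cct4 (24.2%). Both strands were searched throughout. Median GC content was 60.4% in the subunit promoters and 60.4% in those of tested genes. A match is a description of the letters and does not show that a factor binds there.

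Prefoldin, the partner that delivers unfolded actin and tubulin, was represented by 6 genes, of which 3 rose, none fell and 3 did not pass (median log2 fold change 0.20). Over all tested genes 16.2% were called higher. Pfdn4 had 68.4 and 61.5 CPM in DMSO and 107 and 98.4 CPM in topotecan, a rise of 0.66 (SE 0.10, edgeR adjusted p = 9.6e-05). Pfdn2 rose by 0.46 (SE 0.09), and both also passed under the pan-neuronal scaling. Pfdn5 rose by 0.24 (SE 0.08), but did not pass with that scaling (edgeR adjusted p = 0.711) or with library totals (0.0730). Nor did it pass without topotecan replicate 1, topotecan replicate 2 or DMSO replicate 2, where its values were 0.18, 0.30 and 0.19. Vbp1, Pfdn1 and Pfdn6 had values of 0.15, 0.15 and 0.14. Without DMSO replicate 1 the values of Vbp1 and Pfdn1 were 0.39 and 0.23. Without DMSO replicate 2 they were -0.05 and 0.10. The number of prefoldin genes called also changed with single libraries left out. Of the 3 prefoldin-like genes Uxt fell by 0.78 (SE 0.14), where 23.5% of all tested genes were called lower, and Uri1 and Pdrg1 did not pass.

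Phosducin-like proteins bind TRiC and modulate its folding of clients such as G protein beta subunits. Of 3 tested genes Txndc9 rose by 0.23 (SE 0.08), Pdcl fell by 0.37 (SE 0.11) and Pdcl3 did not pass (0.14), while Pdcl2 was too low to test. Over all tested genes 16.2% were called higher and 23.5% lower. Neither call held without topotecan replicate 1 (adjusted p = 0.246 for Txndc9 and 0.102 for Pdcl) or without topotecan replicate 2 (0.138 and 0.164). Txndc9 did not pass with the pan-neuronal scaling (0.05, adjusted p = 0.742) or with library totals (0.0664) either. The tubulin folding cofactors take tubulin from TRiC and join alpha to beta. Their 7 tested rows comprised 3 that rose and 4 that did not pass, beside 16.2% of all tested genes called higher. Tbcb was too low to test. Tbca, the beta-tubulin cofactor A, stands on 2 rows, which rose by 0.42 and 0.46 (SE 0.09 and 0.16), the second of them, at 14.2 to 25.6 CPM, not without DMSO replicate 2 (adjusted p = 0.178) or topotecan replicate 2 (0.210). Tbcc rose by 0.80 (SE 0.28), but at 1.26 CPM in DMSO it was among the low genes, and it did not pass with DESeq2 (adjusted p = 0.177), without DMSO replicate 1 (0.0815), without DMSO replicate 2 (0.0949) or without topotecan replicate 1 (0.256). The values of Tbce, Arl2, Tbcd and Tbcel, which did not pass, were 0.20, 0.01, -0.13 and -1.03. Under the pan-neuronal scaling none of these rows was higher and 2 were lower, beside 661 higher and 3879 lower among all 12162 tested genes.

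Of 10 tested actin and tubulin genes 3 rose (Actb, Tubb3 and Tubb2b), 3 fell (Tubb4a, Tubb4b and Tubb6) and 4 did not pass, with a median of -0.05. Actg1, Tuba1a, Tuba1b and Tubb5 had no row under these symbols, so the list of 14 is covered in part only. Calls in both directions were also the rule over all genes (16.2% higher and 23.5% lower). Actb, a cytoplasmic actin, had 16997 and 15354 CPM in DMSO and 18895 and 19674 CPM in topotecan. Its rise was 0.25 (SE 0.07, edgeR adjusted p = 0.0088). Tubb3, the neuronal beta-tubulin, rose by 0.35 (SE 0.09, edgeR adjusted p = 0.0087), and by 0.21 without DMSO replicate 2. Under the pan-neuronal scaling no gene of this list was higher and 5 were lower, beside 661 higher and 3879 lower among all 12162 tested genes. Tubb4a had 3473 and 3533 CPM in DMSO and 2483 and 2899 CPM in topotecan, a decrease by 0.38 (SE 0.08). Tubb4b fell by 0.37 (SE 0.08), but did not pass without topotecan replicate 1 (adjusted p = 0.0540). Tubb6, another beta-tubulin, dropped by 1.82 (SE 0.21).

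Of 16 other clients 2 rose, 6 fell and 8 did not pass (median -0.07), beside 16.2% higher and 23.5% lower over all tested genes. Under the pan-neuronal scaling none was higher and 8 were lower, beside 661 higher and 3879 lower among all 12162 tested genes. Cdc20, an activator of the anaphase-promoting complex that TRiC folds, had 29.2 and 26.8 CPM in DMSO and 0.946 and 1.74 CPM in topotecan. Plk1, a mitotic kinase, fell by 1.71 (SE 0.30) and Rptor, the mTORC1 scaffold, by 0.67 (SE 0.13). The other falls were those of Ccne1, Bbs7 and Stat3. Hdac3, a histone deacetylase, rose by 0.32 (SE 0.08), but did not pass without topotecan replicate 2 (adjusted p = 0.0777), and the other rise was that of Gnb2. Vhl did not pass (0.10). The counts of clients that rose and fell changed with some single libraries left out, and so did those over all tested genes. Markers of cycling and progenitor cells also fell in the topotecan libraries, as given at the end. Their part in the falls of Cdc20 and Plk1 was not tested.

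Among relatives of the subunits, Bbs10, a chaperonin-like Bardet-Biedl syndrome gene, went from 8.74 and 8.48 CPM to 17.6 and 16.1 CPM, a rise of 0.97 (SE 0.14, edgeR adjusted p = 1.1e-04). Mkks and Bbs12, of the same group, did not pass (0.08 and -0.18). Cct6b, the testis form of subunit 6, held between 15 and 19 counts in each library, far below the 5546 to 9501 counts of Cct6a. Hspd1, the chaperonin of the mitochondrial matrix, had 168 and 175 CPM in DMSO and 172 and 172 CPM in topotecan. Its log2 fold change of 0.00 had a 95% interval from -0.17 to 0.17. The intervals of Cct8 (from 0.05), Tcp1 (from 0.08), Cct6a (from 0.08) and Cct7 (from 0.09) overlapped it. Those of Cct2, Cct3, Cct4 and Cct5 lay above it. The difference between Hspd1 and the subunits was not tested. Hspe1, listed beside Hspd1, had no row under its symbol.

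In the Hsp70 system, which shares clients with TRiC, 2 of 7 tested genes rose and 5 did not pass, beside 16.2% of all tested genes called higher. Dnaja1, an Hsp40 cochaperone, had 1268 and 1304 CPM in DMSO and 1539 and 1581 CPM in topotecan, a rise of 0.28 (SE 0.07, edgeR adjusted p = 0.0054), which did not pass without topotecan replicate 2 (0.0593). Dnajb1, a heat-inducible Hsp40, rose by 0.32 (SE 0.11), but not without topotecan replicate 1 (adjusted p = 0.130), topotecan replicate 2 (0.180), DMSO replicate 2 (0.0790) or with library totals (0.0553). Hsf1 itself had a value of -0.12 and Stip1, the Hsp70-Hsp90 linker, one of 0.10, and neither passed. Hspa4 (0.11) and St13 (-0.17) did not pass either. Under the pan-neuronal scaling no gene of this list was higher and 1 was lower, beside 661 higher and 3879 lower among all 12162 tested genes. The row tested for Hspa8 held between 13 and 25 counts per library, far too few for the constitutive Hsp70 of every cell, and is not read as its level.

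**Figure D4:**
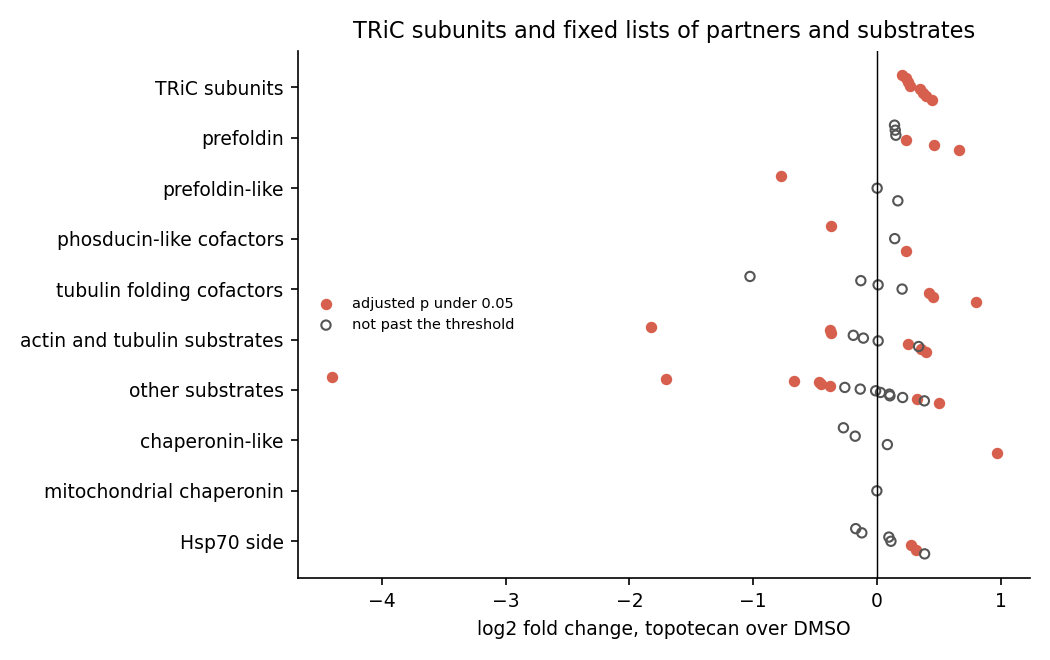
Log2 fold change (topotecan over DMSO) of the 8 TRiC subunits and of every tested gene of the partner lists, filled where the edgeR adjusted p was under 0.05. The subunits sit together between 0.20 and 0.45, while the client lists spread to both sides of 0, with Cdc20 at -4.41.

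The 4 genes with profiles closest to the mean of the complex were Eif3g, Ndufa7, Ergic3 and Scnm1. Likeness was the root mean square difference of log2 CPM, centred over the 4 libraries, among 4275 genes whose average log2 CPM reached 5. It was 0.0026 for Eif3g and 0.0107 for Scnm1, while the subunits themselves lay between 0.0189 (Cct2) and 0.0926 (Cct4). With 4 libraries this describes the shared step between the groups and little else. Eif3g, a subunit of the translation initiation factor eIF3, had 406 and 390 CPM in DMSO and 496 and 499 CPM in topotecan.

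Libraries held between 22957786 and 31181382 counts, and the subunits between 4781 (Tcp1) and 34351 (Cct7) counts in a library. The DMSO libraries lay from 0.49 CPM (Cct3) to 46.7 CPM (Cct4) apart. This spread was not compared with counting error for each subunit. The row named Top1, the target of the drug, held between 0 and 2 counts per library and could not serve as a check. Neuronal markers were abundant in all libraries, with a summed level of 8777 to 9138 CPM in DMSO and 9042 to 9238 CPM in topotecan. Of 11 tested, 4 were higher and 4 lower, beside 16.2% higher and 23.5% lower over all tested genes. Non-neuronal markers moved with the treatment: all 10 astrocyte markers fell, from a sum of 4155 to 4209 CPM to one of 114 to 126 CPM, and all 8 oligodendrocyte lineage markers from 2687 to 3181 CPM to 64.4 to 82.8 CPM, with Sox10 at 0 in both topotecan libraries. All 6 tested markers of progenitor and cycling cells fell, from 81.8 to 92.6 CPM to 8.53 to 10.3 CPM, with Hes5 at 0 in both topotecan libraries. Microglia markers summed to at most 0.516 CPM, with Aif1, C1qa and Cx3cr1 at 0 throughout, endothelial markers to at most 1.60 CPM, and fibroblast and mural markers to 3.23 to 4.50 CPM in any library. The part of these changes in the rise of the subunits was not tested.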

How the data were processed

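Per the labels, total RNA of rat cortical neurons was sequenced in 4 libraries, whose titles give group and replicate number. Raw counts per gene were deposited by the authors in 1 table. Per the submitters' processing notes STAR and edgeR were used. Libraries were prepared with a small RNA kit, per the labels. No source at hand names tool versions, genome build, annotation, counter or strand setting. Identifiers on several rows (792, identical counts) were counted once.

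Counts were tested with edgeR 4.0.16 (R 4.3.3), quasi-likelihood F-test, TMM, filterByExpr (minimum count 10, minimum total 15), with treatment as the only term. Benjamini-Hochberg adjustment ran over 12162 genes, with a threshold of 0.05. Standard errors (SE) were taken as |log2 fold change|/√F, with n = 2 per group and 2 residual degrees of freedom. The p-values and intervals did not rest on these 2 alone. They used the total degrees of freedom of the fit (median 13.31), to which edgeR adds information on the variance from all genes. The precision given for a gene therefore depends on that sharing between genes. The biological coefficient of variation was 0.0831. Replicates differed by more than sampling noise (chi-square per degree of freedom 13.0 and 9.34). Gene spans and promoters came from RefSeq GRCr8, matched by identifier or symbol. No transcript lengths were used, so levels of different genes are not compared.

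The members, lists and tests were chosen with earlier results of these data known. 1 gene of the client list is not reported here, and the counts of that list are given without it. Named genes are the 8 subunits, all tested genes of lists of up to 7, and of longer lists the 3 smallest p and the 2 most abundant. Other genes named within a count were chosen after their values were seen. Alternatives were DESeq2 1.42.0 (test and size factors), limma-voom (limma 3.58.1), library totals, pan-neuronal scaling, no filter, no mitochondrial genes, a replicate block and each library left out.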

Additional observations from a re-analysis of the deposited data

How the results depend on the processing

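All 8 subunits stayed above 0 in every alternative, and all 8 were called with DESeq2 (test or size factors), limma-voom, no count filter and no mitochondrial genes. With library totals only, 6 were called, with 1653 genes higher in all. Tcp1 (0.21) and Cct8 (0.17) did not pass there. Under the pan-neuronal scaling 1 was called, with 661 genes higher. The values that no longer passed were 0.064 for Tcp1, 0.16 for Cct2, 0.21 for Cct3, 0.19 for Cct5, 0.080 for Cct6a, 0.048 for Cct7 and 0.015 for Cct8. The cause was not tested. With 1 library left out, the number called ran from 4 to 8 and all genes called higher from 1208 (without topotecan replicate 1) to 2470. A lone library was assumed to vary like the other group. Log2 fold changes then ran from 0.20 to 0.32 for Tcp1, from 0.17 to 0.38 for Cct6a, from 0.22 to 0.27 for Cct7 and from 0.19 to 0.23 for Cct8.

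With the replicate number as a block all 8 subunits were called, with 1822 genes higher and 2746 lower. Dnajb1 (adjusted p = 0.0506) and Tbcc (0.0518) did not pass with the block. The labels do not say that a number marks a shared source, and the deviations of same-numbered libraries correlated at -0.04 across genes, so the block was not used otherwise.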
